A study of Sus scrofa with 75 samples.

Results

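The acute phase genes CRP, ITIH4, ITIH3, LBP, LCN2, ORM1, SAA4, CEBPD and SOCS3 were followed through the heart, kidney, liver, lung and spleen of adult male pigs aged 12 months. The 9 genes were chosen by name, out of 35798 genes with a short-read level. The assembled annotation names 7 of them. ORM1 and SAA4 carry no name there and were identified by position against the RefSeq genes of the same build. The animals analysed are labelled BS or DSE, with 4 of each, numbered as separate pigs. The labels also list another pig group, DT, with 20 short-read and 5 long-read samples, which match no column name and are not analysed here. None of the codes is spelled out, and all animals share sex and age. RNA was taken with Trizol and acid phenol in every case. Short reads came from 40 rRNA-depleted Illumina libraries, 1 per animal and organ, with levels deposited in TPM, a length-corrected share of each library. PacBio IsoSeq, which reads transcripts from end to end, gave 10 libraries, 1 per pig group and organ.

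The acute phase response is the change in plasma proteins that follows infection or injury. Cytokines of the interleukin 6 and interleukin 1 families act on hepatocytes through STAT3, C/EBP factors and NF-kB, and the liver then makes more of the positive acute phase proteins. CRP binds damaged cells and bacteria, ORM1 is alpha-1-acid glycoprotein, a carrier of drugs and a modulator of immune cells, and SAA4 is the constitutive serum amyloid A of high-density lipoprotein in humans. LBP hands bacterial lipopolysaccharide to CD14. ITIH4 and ITIH3 are heavy chains of the inter-alpha-trypsin inhibitor family, and ITIH4, known as pig-MAP, is a main acute phase protein of this species. LCN2 is a lipocalin that withholds iron from bacteria by binding their siderophores. CEBPD is a transcription factor of the C/EBP family, and SOCS3 is the feedback inhibitor of interleukin 6 signalling.

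The depth of the short-read libraries is unknown, so single low TPM values have an unknown precision. The long-read libraries held 119623 to 456783 full-length reads. As a check of the organ labels, the summed level of 8 hepatocyte markers was 11275 to 14490 TPM in BS livers and 14555 to 18528 TPM in DSE livers, and at most 113 TPM in any other organ. That highest value, in the spleen of BS animal 1, was 112 TPM of ARG1 and 0.446 TPM of the other 7 markers. Those 7 held at most 68.0 TPM outside the liver, in kidney. The liver of BS animal 4 held 221 TPM of 6 heart muscle markers, and the other livers at most 4.74 TPM. The 8 lung epithelium markers summed to 3.37 to 54.6 TPM in BS livers and 50.2 to 123 TPM in DSE livers. Most of this was SCGB1A1, at 24.7 ± 25.6 TPM in BS livers and 79.5 ± 31.2 TPM in DSE livers (SD, n = 4 each), and its source was not tested. Fewer cells of a type and less RNA per cell cannot be told apart in these bulk tissues.

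CRP and 5 other secreted proteins were liver transcripts, LCN2 was highest in lung, and the regulators CEBPD and SOCS3 were present in every organ. CRP, ITIH4, ITIH3, LBP, ORM1 and SAA4 were called higher in liver than in each of the other organs, by limma on log2(TPM + 1) with an adjusted p under 0.05 and at least 4-fold. The background was 7.52% of the 16905 genes tested for liver over heart, 3.29% over kidney, 4.51% over lung and 5.74% over spleen. These fold changes are on the log2(TPM + 1) scale, which understates the change of genes near 0 elsewhere.

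**Figure D1:**
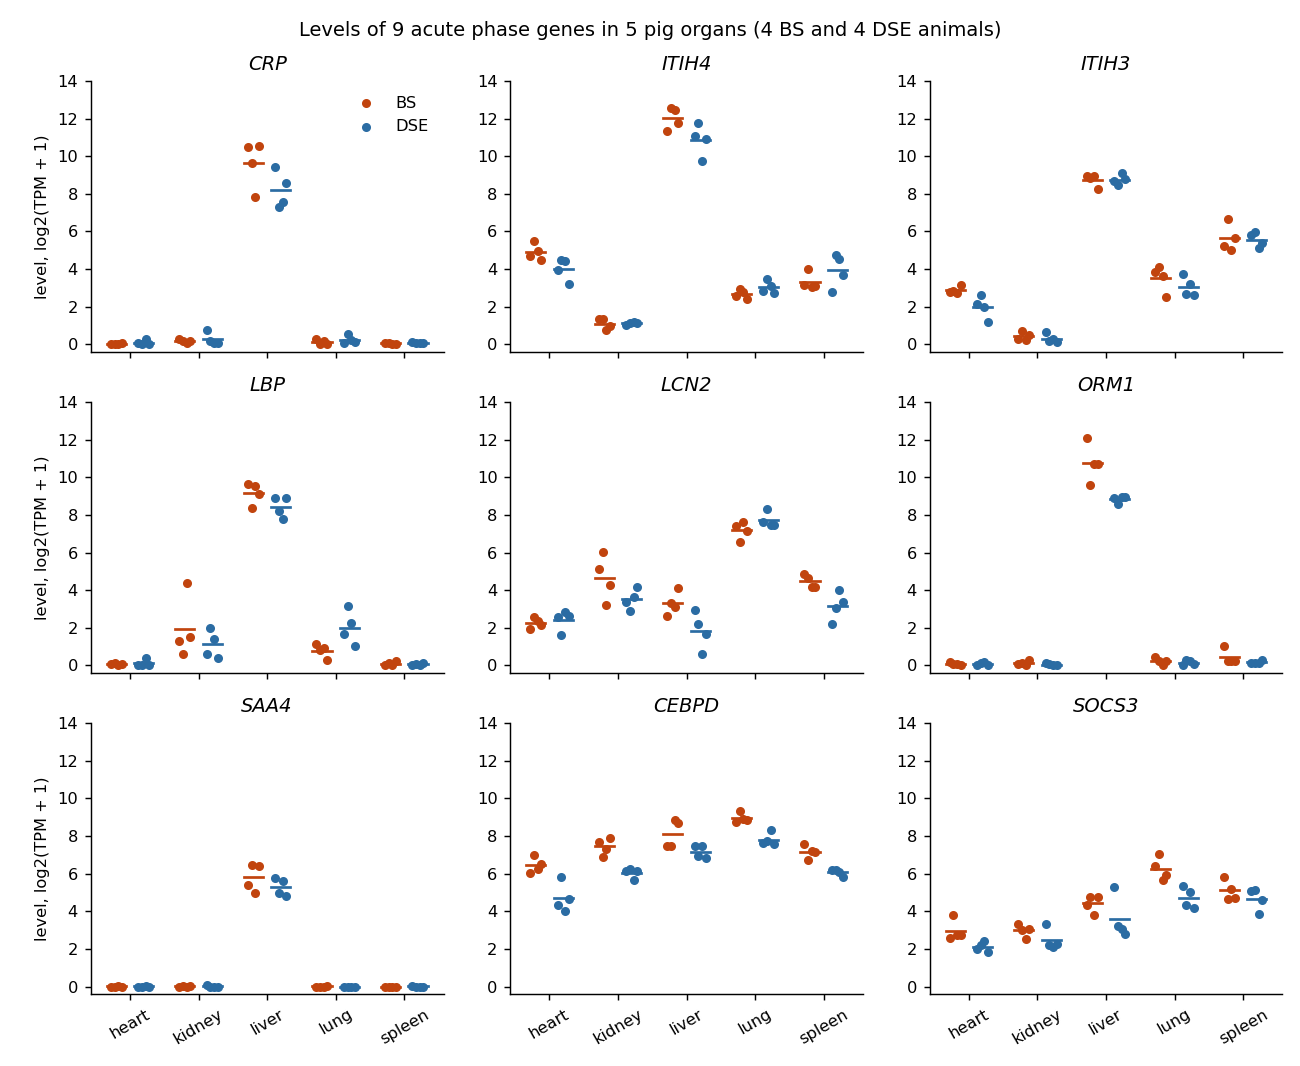
Level of each acute phase gene as log2(TPM + 1) by organ, with 1 point per animal and a line at the mean of 4 animals; BS stands left of DSE. CRP, ORM1 and SAA4 lie near 0 outside the liver, ITIH4 and ITIH3 keep measurable levels in heart, lung and spleen, LCN2 is highest in lung, and CEBPD and SOCS3 lie above 0 in all 40 libraries.

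CRP lies on chromosome 4 (ENSSSCG00000006403, plus strand, 90786280 to 90805218, build susScr11, as are all positions here). Its level in liver was 1423, 800.0, 227 and 1504 TPM in the 4 BS animals and 690, 156, 190.1 and 383 TPM in the 4 DSE animals. No library of another organ reached more than 0.687 TPM. The liver difference was 8.71 to 8.87 on the log2 scale (SE 0.25, highest adjusted p = 3.4e-26, limma). The annotation bears on these values. A joint identifier runs over CRP on the same strand and held 0.796 to 74.1 TPM in liver. A separate unnamed identifier just upstream (90782760 to 90783863) held 80.2 to 508 TPM in liver and was listed at 0 in every other library. Reads that fit more than 1 of these could have been split between them.

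ORM1 (ENSSSCG00000005488, chromosome 1, plus strand, 254939149 to 254943063) reached 4424, 782, 1648 and 1680.2 TPM in BS livers and 483, 377, 498 and 498 TPM in DSE livers. Outside the liver its highest value was 1.01 TPM in the spleen of BS animal 1. The liver difference was 9.52 to 9.73 on the log2 scale (SE 0.18, highest adjusted p = 6.9e-32, limma).

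SAA4 (ENSSSCG00000046269, chromosome 2, plus strand, 40987252 to 41007266) was the lowest of the liver proteins. It had 41.5, 86.3, 30.2 and 84.9 TPM in BS livers and 52.7, 29.9, 47.0 and 26.8 TPM in DSE livers, and at most 0.0413 TPM elsewhere. Its liver difference was 5.53 to 5.54 on the log2 scale (SE 0.14, highest adjusted p = 4.18e-28, limma). Another serum amyloid gene, SAA2, also identified by position, was far higher. SAA2 ranged over 9637 to 24597 TPM in BS livers and 9746.5 to 21478 TPM in DSE livers.

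LBP (ENSSSCG00000028758, chromosome 17, plus strand, 41393818 to 41429551) had 788, 325, 754 and 544 TPM in BS livers and 472, 289.9, 221 and 477 TPM in DSE livers. A low second level appeared in kidney and lung. Kidney values were 1.45, 0.513, 19.8 and 1.82 TPM in BS animals and 0.551, 3.02, 1.68 and 0.335 TPM in DSE animals, so that a single BS kidney stood apart. The liver difference was 7.27 over kidney, 7.40 over lung, 8.70 over heart and 8.72 over spleen on the log2 scale (SE 0.34, highest adjusted p = 3.95e-20, limma).

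ITIH4 (ENSSSCG00000011453, chromosome 13, minus strand, 34928438 to 34948229) was the most abundant of the 9 genes. It had 2628, 6144, 5551 and 3511 TPM in BS livers and 2134, 3448, 844 and 1949 TPM in DSE livers. The other organs followed in the order heart, spleen, lung and kidney. Heart had 25.1, 43.8, 30.2 and 21.7 TPM in BS animals and 14.6, 21.0, 20.8 and 8.13 TPM in DSE animals. Spleen ranged over 7.41 to 15.2 TPM in BS animals and 5.94 to 26.3 TPM in DSE animals, lung over 4.24 to 10.2 TPM in all 8 and kidney over 0.683 to 1.55 TPM. The liver difference was 6.99 over heart and 10.34 over kidney (SE 0.26, highest adjusted p = 3e-23, limma), and every neighbouring pair in that order differed at an adjusted p of at most 0.0084, although heart over spleen (0.82) and spleen over lung (0.79) were less than 2-fold.

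ITIH3 (ENSSSCG00000011451, chromosome 13, plus strand, 34906538 to 34933706) overlaps ITIH4 by 5269 bases on the opposite strand. Whether strand was used in counting is not stated, so reads from the overlap cannot be told apart. The leading ITIH3 transcript in liver, spleen, lung and heart, ENSSSCT00000012532, ended at 34924808, outside the overlap. ITIH3 had 487, 467, 494 and 309 TPM in BS livers and 407, 354, 547 and 444 TPM in DSE livers. Spleen was its second organ, with 36.5, 101.3, 31.5 and 49.9 TPM in BS animals and 54.7, 61.5, 33.3 and 40.9 TPM in DSE animals. Lung ranged over 4.82 to 15.99 TPM in BS animals and 5.14 to 12.2 TPM in DSE animals, heart over 5.57 to 8.01 TPM in BS animals and 1.25 to 5.24 TPM in DSE animals, and kidney stayed at or below 0.628 TPM. The order liver, spleen, lung, heart and kidney thus differed from that of ITIH4, in which heart came second. The liver exceeded the spleen by 3.15 (SE 0.22, adjusted p = 2.7e-15) and the spleen exceeded the lung by 2.32 (SE 0.22, adjusted p = 2.5e-11) on the log2 scale by limma. Lung over heart was 0.86 (adjusted p = 5.4e-04, limma) in TPM as deposited and -0.27 with median-ratio scaling of the libraries, so those neighbours have no fixed order.

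LCN2 (ENSSSCG00000005638, chromosome 1, plus strand, 268609887 to 268614644) was highest in lung, with 171, 93.1, 198 and 139 TPM in BS animals and 196, 317, 179 and 173 TPM in DSE animals. Kidney followed with 33.9, 64.0, 8.30 and 18.4 TPM in BS animals and 9.17, 6.44, 11.5 and 17.2 TPM in DSE animals. Spleen had 27.8, 24.1, 17.3 and 17.3 TPM in BS animals and 3.58, 7.34, 15.3 and 9.37 TPM in DSE animals, and heart and liver lay at 0.508 to 16.3 TPM. The lung was called higher than every other organ, by 3.36 on the log2 scale over kidney to 5.12 over heart (SE 0.32, highest adjusted p = 1.4e-11, limma). The background was 10.9% of genes for lung over kidney, 16.3% over heart, 20.3% over liver and 6.96% over spleen. Kidney and spleen did not differ beyond their spread (0.27, adjusted p = 0.45, limma), nor did liver and heart (0.24, adjusted p = 0.55, limma).

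Lung also held 7 measured neutrophil markers at a summed level of 1180 to 4083 TPM in BS animals and 813 to 1350 TPM in DSE animals, and spleen, the next organ, at 166 to 1258 TPM in BS animals and 147 to 267 TPM in DSE animals. The part of these cells in the LCN2 level was not tested. The genes whose levels over the 40 libraries were most like LCN2 were LRRC46 (Pearson r = 0.930), CFAP119 (r = 0.929) and SPEF1 (r = 0.927), among 11446 genes compared. SPEF1 codes for a microtubule protein of motile cilia. These correlations are descriptions over libraries that share organs and animals.

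CEBPD (ENSSSCG00000032367, chromosome 4, plus strand, 79872939 to 79874477, a single exon) was highest in lung and liver. It averaged 363 ± 162 TPM in lung and 227 ± 134 TPM in liver, followed by 123 ± 71.4 TPM in kidney, 107 ± 48.8 TPM in spleen and 58.9 ± 38.5 TPM in heart (SD, n = 8). Kidney and spleen did not differ beyond their spread (0.13, adjusted p = 0.61, limma). SOCS3 (ENSSSCG00000036956, chromosome 12, plus strand, 3643929 to 3647009) averaged 54.2 ± 38.4 TPM in lung, 30.7 ± 12.4 in spleen, 18.1 ± 11.5 in liver, 5.999 ± 2.42 in kidney and 5.33 ± 3.21 in heart (SD, n = 8). CEBPD was called higher in lung than heart (2.80 on the log2 scale, SE 0.22, adjusted p = 4.5e-14, limma). It was also called higher in liver than heart (2.07, adjusted p = 1.67e-10, limma), a call that was under 4-fold without BS animal 3, BS animal 4, DSE animal 1 or DSE animal 3, at 1.90 to 1.98. SOCS3 was called higher in lung than heart (2.96, SE 0.29, adjusted p = 1.5e-11) and kidney (2.77, SE 0.29, adjusted p = 1.2e-10) by limma. It was also called higher in spleen than heart (2.35, SE 0.29, adjusted p = 3.6e-09) and kidney (2.16, SE 0.29, adjusted p = 2.8e-08) by limma. Lung and spleen (0.60, adjusted p = 0.072) and kidney and heart (0.19, adjusted p = 0.57) did not differ beyond their spread in limma.

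The order of the top organs depended on the scaling for both regulators. The median gene of the 16905 tested was 1.075 higher in lung than liver on the log2 scale in TPM as deposited, and 18.2% of the calls between liver and lung were higher in liver, against 56.2% with median-ratio scaling, where the median liver minus lung difference of all genes was -0.035. CEBPD lay 0.73 higher in lung than liver as deposited (adjusted p = 2.4e-03, limma) and -0.74 on the same lung minus liver scale with that scaling (adjusted p = 0.00535, limma). SOCS3 lay 1.49 higher in lung than liver as deposited (adjusted p = 1.5e-05, limma) and 0.09 higher with that scaling (adjusted p = 0.81, limma). SOCS3 in spleen against liver was 0.88 as deposited (adjusted p = 0.0054, limma) and -0.26 with that scaling (adjusted p = 0.45, limma). The calls of lung over heart ended under it for CEBPD (1.46) and SOCS3 (1.73), both then under 4-fold. So did the SOCS3 calls of spleen over heart (1.38) and kidney (1.95), which also fell under 4-fold with that scaling. CRP, ITIH4, ITIH3, LBP, ORM1 and SAA4 kept their liver calls over each organ under it, and LCN2 its lung calls.

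By short reads, the transcripts that led for ITIH4 in liver were not those that led in the remaining 4 organs. Of the 29 annotated ITIH4 transcripts, ENSSSCT00000065989 (26 exons, 4359 nt) and ENSSSCT00000068769 (27 exons, 4155 nt) together took 86.4 ± 4.87% of ITIH4 TPM in heart, 95.9 ± 4.21% in kidney, 95.9 ± 1.79% in lung and 93.6 ± 1.87% in spleen, against 6.30 ± 0.42% in liver (SD, n = 8). The 8 livers lay between 5.77% and 6.86%, and no library of another organ lay under 76.8%. Both transcripts hold exon stretches of 1062 bases (34945502 to 34946563) and 121 bases (34946734 to 34946854) near the start of the gene. Whether these stretches are whole exons or parts of exons was not examined. The 3 transcripts that led in liver lack both stretches: ENSSSCT00000012534 took 27.7 ± 1.576% there, ENSSSCT00000069224 27.2 ± 1.88% and ENSSSCT00000061383 21.5 ± 2.703%. In level, the pair still reached 203 ± 105.5 TPM in liver, against 20.1 ± 9.73 TPM in heart and 12.3 ± 7.26 TPM in spleen. ENSSSCT00000068769 led in heart, with 67.6 ± 6.33%, and ENSSSCT00000065989 led in kidney (89.0 ± 7.25%), lung (74.7 ± 11.1%) and spleen (83.5 ± 6.75%). These shares are estimates that short reads split among overlapping transcripts, and they were described, not tested. The few full-length reads in heart that were traced to a transcript did not show these stretches. Of 6 BS heart reads 3 lay on PB.15312.27 and 1 on PB.15312.37, where the 1 DSE heart read also lay. The transcripts of the remaining BS heart reads were not examined. PB.15312.27 and PB.15312.37 stop at 34943875 and 34943894, short of the 2 stretches. In the BS liver they held 55 and 54 of 174 reads.

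**Figure D2:**
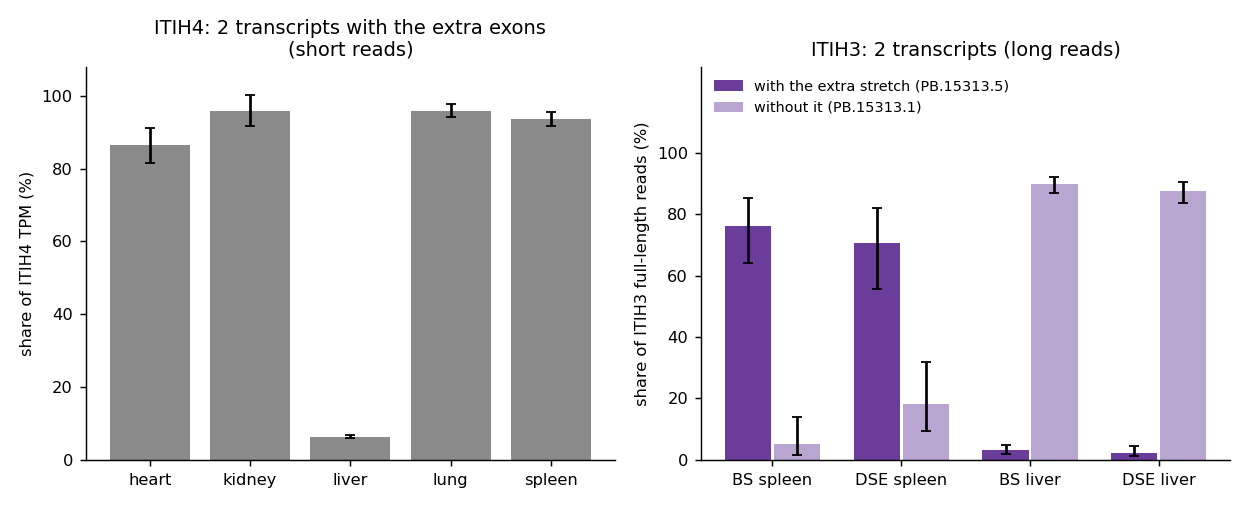
Left, share of ITIH4 TPM taken by the 2 transcripts that hold the 1062-base and 121-base exon stretches, as the mean of 8 animals with its SD. Right, share of ITIH3 full-length reads on the transcripts with and without the 931-base stretch in the single spleen and liver libraries of each pig group, with Wilson 95% intervals; the 4 bars of the longer form are 76.3% and 70.5% in spleen and 3.06% and 2.39% in liver.

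Full-length reads also put ITIH3 highest in liver and next in spleen, with a different main transcript in spleen. Heart and lung did not differ in them (0.75 on the log2 scale, adjusted p = 0.382, edgeR). ITIH3 had 555 reads in the BS liver and 335 in the DSE liver, 59 and 44 in the spleens, 11 and 13 in the hearts, 7 and 7 in the lungs and 1 and 0 in the kidneys, with BS first in each pair. Transcript PB.15313.5 (20 exons, 3724 nt) took 45 of 59 reads in the BS spleen, which is 76.3% with a Wilson 95% interval of 64.0% to 85.3%, and 31 of 44 reads in the DSE spleen (70.5%, 55.8% to 81.8%). In liver it took 17 of 555 BS reads (3.06%, 1.92% to 4.85%) and 8 of 335 DSE reads (2.39%, 1.22% to 4.64%). The liver's main form was PB.15313.1 (21 exons, 2947 nt), with 89.7% of BS and 87.5% of DSE liver reads, against 5.085% of BS and 18.2% of DSE spleen reads. It also held 11 of 11 BS and 11 of 13 DSE heart reads, and 3 of 7 BS and 7 of 7 DSE lung reads. PB.15313.5 holds a stretch of 931 bases (34911935 to 34912865) that PB.15313.1 lacks. It lacks 156 bases (34911009 to 34911164) that PB.15313.1 holds.

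In short reads the leading transcript was ENSSSCT00000012532 in spleen, heart and lung as in liver, with 62.6 ± 7.63% in spleen, 45.1 ± 11.6% in heart, 61.1 ± 13.98% in lung and 68.6 ± 4.16% in liver (SD, n = 8). In spleen PB.15313.17 and PB.15313.18, which start inside the same stretch, took 13.3 ± 5.75% and 9.70 ± 6.36%. PB.15313.5, the main spleen form in full-length reads, took a smaller share than either of them in the short reads of spleen. In heart PB.15313.5 took 7.62 ± 3.75% in short reads, but 0 full-length reads of either pig group. The 2 kinds of reads thus differed on the main ITIH3 form of spleen. With 1 library per pig group and organ the intervals cover counting error only.

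By edgeR's quasi-likelihood test with pig group as a term, the full-length counts put ITIH3 higher in liver than spleen by 3.35 on the log2 scale (adjusted p = 8.5e-14), heart by 6.16, lung by 6.91 and kidney by 10.62. ITIH4 had 174 reads in the BS liver and 17 in the DSE liver, 6 and 1 in the hearts and 1 in the BS spleen, and was higher in liver than heart by 5.75 (adjusted p = 3.7e-17, edgeR). ORM1 had 203 reads in the BS liver and 156 in the DSE liver and 0 in every other library, which makes the liver at least 28.6-fold higher than spleen and at least 53.7-fold higher than heart with a floor of 3 reads per library. Calls of ORM1 passed with edgeR (highest adjusted p = 1.1e-31) and did not with DESeq2 (adjusted p of 0.068 to 0.104), while those of ITIH3 and ITIH4 passed with both. The background of calls among 4102 genes was 16% for liver over heart, 9.53% over kidney, 13.3% over lung and 15.7% over spleen. The long-read locus over CRP had 271 reads in the BS liver and 111 in the DSE liver and 0 elsewhere, but only 2 fell on CRP's own transcript, so CRP was not tested. No long-read transcript of LBP, LCN2, SAA4, CEBPD or SOCS3 is in the annotation.

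Between BS and DSE animals, CEBPD differed in the most organs. It was higher in BS in heart, kidney, lung and spleen, ORM1 was higher in BS livers, SOCS3 in BS lungs and LCN2 in BS spleens. Each of these passed an adjusted p of 0.05 and 2-fold in limma fits of the 8 libraries of that organ. Acute phase genes were tested where a group averaged 1 TPM or more. In heart 1 of 5 of them was called higher, with 2.17% of all genes higher and 0.415% lower. In kidney 1 of 5 was called higher (background 3.09% higher, 1.39% lower) and in liver 1 of 9 was (2.72% higher, 0.642% lower). In lung 2 of 6 were called higher (2.69% higher, 6.36% lower), and LBP, which met the 1 TPM minimum there through DSE alone, was called lower, and in spleen 2 of 5 were called higher (1.42% higher, 1.56% lower). No date or batch of extraction is given, so pig group and any such batch cannot be told apart.

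**Figure D3:**
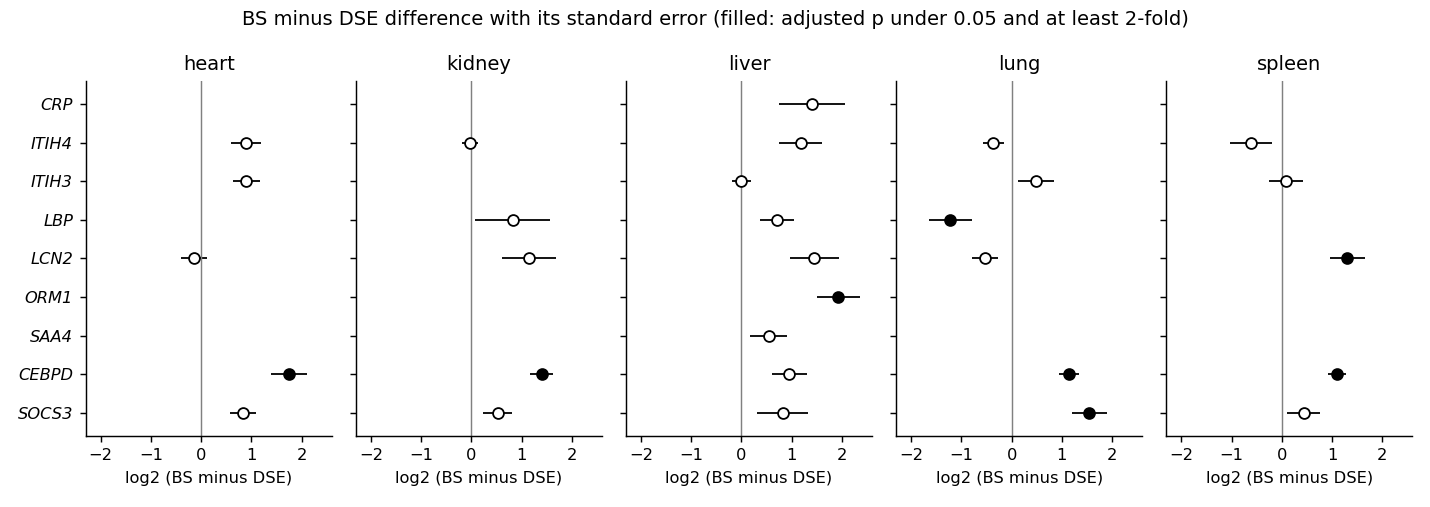
BS minus DSE difference of each acute phase gene on the log2(TPM + 1) scale with its standard error, for 4 BS and 4 DSE animals per organ; genes under the 1 TPM filter have no point. Filled points passed the test: CEBPD lies between 0.95 and 1.75 in all 5 organs and is filled in 4, and ORM1 in liver is the highest point at 1.93.

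CEBPD in heart was 65.8, 125, 76.1 and 90.6 TPM in BS animals and 19.5, 55.2, 15.0 and 24.3 TPM in DSE animals. In kidney it was 206, 117, 157 and 242 TPM in BS animals and 68.6, 74.9, 49.995 and 70.0 TPM in DSE animals. In both organs every BS value lay above every DSE value. In lung it was 423, 637, 473 and 462 TPM in BS animals and 196, 213, 315 and 188 TPM in DSE animals. In spleen it was 193, 106, 146 and 141 TPM in BS animals and 71.4, 72.2, 68.3 and 54.7 TPM in DSE animals. Neither pair of groups overlapped. The liver was the exception, where 180, 174, 462 and 414 TPM in BS animals overlapped with 175, 120.5, 176 and 113 TPM in DSE animals.

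The BS minus DSE difference of CEBPD was 1.75 in heart (SE 0.35, adjusted p = 0.0056), 1.40 in kidney (SE 0.23, adjusted p = 0.004), 1.14 in lung (SE 0.19, adjusted p = 0.0042) and 1.1001 in spleen (SE 0.18, adjusted p = 0.0059) on the log2 scale by limma. In liver it was 0.95 (SE 0.35, adjusted p = 0.071, limma), and the limma F test for a difference between organs did not pass (F = 1.04, adjusted p = 0.604, with 8.4% of all genes passing). Without BS animal 1 the liver passed (1.16, adjusted p = 0.0463, limma), as it did without BS animal 2 (1.18, adjusted p = 0.0492, limma). The spleen call ended without BS animal 1 (0.958, adjusted p = 0.0124, limma, under 2-fold). On each animal's mean over the 5 organs, a comparison added after the single organs had been seen, it was 1.27 (SE 0.10, adjusted p = 2.4e-05, limma), where 1.02% of genes were called higher and 0.367% lower. Among the 10433 genes tested in every organ, 12.4% had every BS value above every DSE value in at least 4 organs, as CEBPD did. The part of a general shift between the groups in its difference was not tested. In lung the median of all genes was -0.21 and in spleen -0.115, and 29.7% of lung and 47.6% of spleen calls were higher, against 70.8% and 71.7% with median-ratio scaling. CEBPD differed by 1.40 in lung and 1.23 in spleen with that scaling. The genes whose levels over 40 libraries were most like CEBPD were NBL1 (r = 0.881), FADD (r = 0.864) and ZNF444 (r = 0.854).

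**Figure D4:**
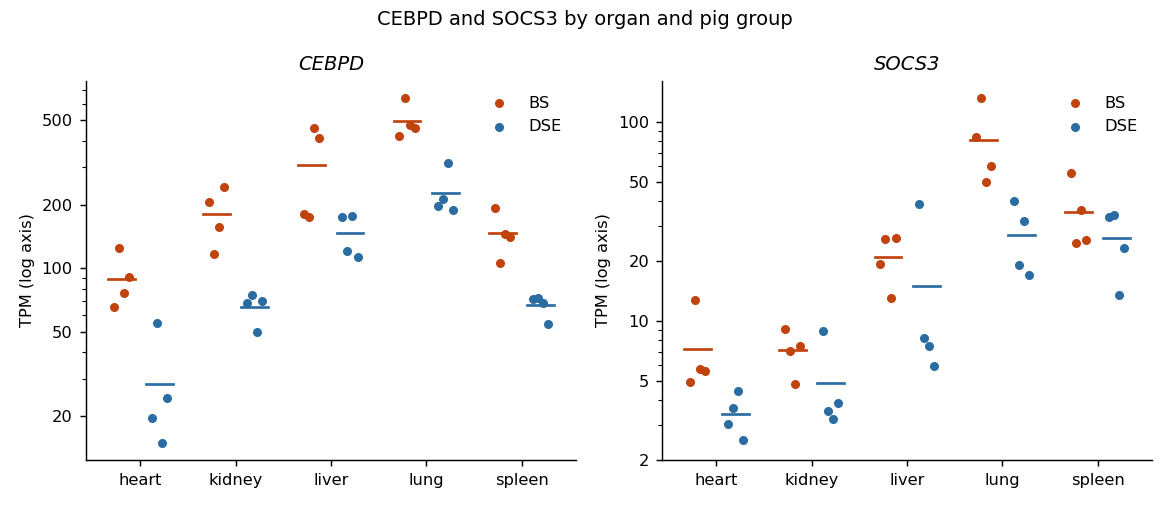
TPM of CEBPD and SOCS3 by organ on a log axis, with 1 point per animal and a line at the mean of 4 animals; BS stands left of DSE. CEBPD does not overlap between the groups in 4 organs, SOCS3 in heart and lung, and DSE animal 1 stands above the other DSE animals in liver SOCS3 at 38.5 TPM.

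SOCS3 in lung was 83.9, 132, 50.03 and 59.96 TPM in BS animals and 40.1, 19.1, 31.7 and 17.0 TPM in DSE animals, with no overlap. The difference was 1.54 on the log2 scale (SE 0.35, adjusted p = 0.01, limma). In heart the groups did not overlap either, with 4.92, 12.7, 5.73 and 5.58 TPM in BS animals and 3.04, 3.66, 4.43 and 2.53 TPM in DSE animals. That difference of 0.83 (SE 0.26, adjusted p = 0.032, limma) stayed under 2-fold. The liver values of 19.4, 25.8, 13.1 and 26.1 TPM in BS animals and 38.5, 8.21, 7.46 and 5.96 TPM in DSE animals overlapped in DSE animal 1 alone, the highest of all 8. The difference there was 0.82 (adjusted p = 0.25, limma) and 1.39 without that animal (adjusted p = 0.0139, limma), and the adjusted p ranged over 0.0139 to 0.467 across alternatives. On each animal's organ mean SOCS3 differed by 0.83 (adjusted p = 0.0117, limma), and by 1.06 without DSE animal 1 (adjusted p = 8.58e-04, limma). The genes most like SOCS3 over 40 libraries were NFAM1 (r = 0.894), ACOT7 (r = 0.888) and CCL3L1 (r = 0.885).

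Every BS value lay above every DSE value for ITIH4, ITIH3, CEBPD and SOCS3 in heart, as for 23.1% of the genes tested there. The same held for CEBPD in kidney (19.8% of genes), ORM1 in liver (19.2%), CEBPD and SOCS3 in lung (14.2%) and LCN2 and CEBPD in spleen (12%). ITIH4 in heart differed by 0.90 (adjusted p = 0.04) and ITIH3 by 0.89 (adjusted p = 0.028) by limma, both under 2-fold.

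ORM1 was the 1 of the 9 genes called between the groups in liver. The lowest BS liver, at 782 TPM, lay above the highest DSE liver, at 498 TPM, and the highest BS liver reached 4424 TPM. The difference was 1.93 on the log2 scale, or 3.81-fold (SE 0.43, adjusted p = 0.014, limma). In short reads it held under the 13 alternatives run, which include leaving out each animal, at 1.49 to 2.32. The full-length reads did not show it. ORM1 had 203 of 282770 reads in the BS liver and 156 of 216155 in the DSE liver, so its share was not higher in BS. With 1 long-read library per pig group and organ, that comparison was not tested. ORM1 did not reach the 1 TPM minimum in either group outside the liver, so its difference there was not tested organ by organ.

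CRP, LCN2, ITIH4, LBP, SAA4 and ITIH3 overlapped between the groups in liver. The BS minus DSE difference in liver was 1.41 for CRP (SE 0.66, adjusted p = 0.14), 1.45 for LCN2 (SE 0.48, adjusted p = 0.054), 1.17 for ITIH4 (SE 0.43, adjusted p = 0.069), 0.71 for LBP (SE 0.34, adjusted p = 0.14) and 0.54 for SAA4 (SE 0.37, adjusted p = 0.29) by limma. ITIH3 stood at -0.0032 (SE 0.19, adjusted p = 0.99, limma). The median over the 7 plasma proteins was 1.175, beside 0.04 over the 12147 genes tested in liver. Without BS animal 3, whose 227 TPM lay below the other BS livers, CRP passed (adjusted p = 0.0225, limma), and its adjusted p ranged over 0.0225 to 0.284 across alternatives. The unnamed identifier upstream of CRP was highest in that same liver, at 508 TPM, against 153 to 424 TPM in the other BS livers. The 424 TPM was in BS animal 4, which had the highest CRP of all, at 1504 TPM. DSE animal 3 had 358 TPM of that identifier and 190 TPM of CRP. Whether reads were split between CRP and that identifier was not tested. ITIH4 passed without DSE animal 2 (1.47, adjusted p = 0.0403, limma), and LCN2 passed without BS animal 1 (1.67, adjusted p = 0.0494, limma) or DSE animal 1 (1.82, adjusted p = 0.0307, limma). The 8 hepatocyte markers did not move together. CPS1 was called lower in BS livers (-1.12, adjusted p = 0.0119, limma), F2 lay at 430 to 489 TPM in BS livers and 274 to 314 TPM in DSE livers (0.71, adjusted p = 0.0037, limma, under 2-fold), and APOH stood at -0.45 (adjusted p = 0.0779), FABP1 at -0.39 (adjusted p = 0.178) and SERPINC1 at 0.18 (adjusted p = 0.251) by limma. Their sum, which did not overlap between the groups, overlapped without ARG1, at 10575 to 13885 TPM in BS livers and 13770 to 17580 TPM in DSE livers. The 6 macrophage markers summed to 516 to 808 TPM in BS livers and 311 to 569 TPM in DSE livers. Of these 6, 2 were called higher in BS livers and 0 lower, against 2.72% and 0.642% of all genes. CSF1R averaged 41.9 ± 7.50 TPM in BS livers and 19.8 ± 4.35 TPM in DSE livers (SD, n = 4 each). MARCO averaged 39.4 ± 49.1 TPM in BS livers and 3.28 ± 2.22 TPM in DSE livers (SD, n = 4 each). The part of hepatocyte or macrophage content in these differences was not tested.

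LCN2 in spleen had its lowest BS value at 17.3 TPM, above the highest DSE value of 15.3 TPM. The difference was 1.31 (SE 0.34, adjusted p = 0.024, limma). The call ended without BS animal 1 (1.18, adjusted p = 0.0579, limma), whose spleen held the most neutrophil markers, at 1258 TPM. It also ended without DSE animal 1 (0.985, adjusted p = 0.0302, limma, under 2-fold) or DSE animal 2 (1.27, adjusted p = 0.0578, limma), and the adjusted p ranged over 0.0128 to 0.0656 across alternatives. Of 6 neutrophil markers tested in spleen 4 were called higher in BS, against 1.42% of all genes. Of these, LTF met the 1 TPM minimum through BS alone, and their part in the LCN2 difference was not tested. In kidney the LCN2 difference was 1.14 (adjusted p = 0.124, limma), and it passed without BS animal 3 (1.62, adjusted p = 0.0195, limma). In lung the LCN2 difference was -0.53 (SE 0.26, adjusted p = 0.13, limma), and the test for a difference between organs gave an adjusted p of 0.074. LBP in lung was 1.21, 0.791, 0.872 and 0.212 TPM in BS animals and 2.14, 7.88, 3.70 and 1.02 TPM in DSE animals. With a mean of 0.772 TPM in BS lungs and 3.68 TPM in DSE lungs, it was tested only because of the DSE level, and without the minimum it did not pass (adjusted p = 0.0991, limma). The call (-1.22, SE 0.42, adjusted p = 0.046, limma) was lost in 9 of 13 alternatives, among them leaving out DSE animal 2 (-0.84, adjusted p = 0.0795, limma), at values of -1.93 to -0.84 and an adjusted p of 0.0216 to 0.101.

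Of 18 genes of the cytokine signalling that drives the acute phase response, 4 were called higher in BS lungs and 2 lower, against 2.69% and 6.36% of all genes, with a list median of -0.13 beside -0.21 for all genes. IL1B, an inducer of the acute phase that was identified by position, averaged 41.8 ± 30.4 TPM in BS lungs and 2.696 ± 0.63 TPM in DSE lungs (SD, n = 4 each), a difference of 3.21 on the log2 scale (SE 0.51, adjusted p = 0.0037, limma). IL6 averaged 6.48 ± 5.25 TPM in BS lungs and 1.52 ± 0.56 TPM in DSE lungs (SD, n = 4 each), a difference of 1.37 (SE 0.41, adjusted p = 0.0275, limma). TNF stood at 0.66 (adjusted p = 0.27) and LIF at -0.49 (adjusted p = 0.131) by limma. The receptor genes IL6R and IL6ST, named after their values were seen, were the 2 lower ones, at -1.09 and -1.17 (adjusted p = 0.024 and 0.0031, limma). The other 2 higher ones, also named after their values were seen, were OSM, a cytokine of the interleukin 6 family, at 2.47 (adjusted p = 0.0024), and CEBPB, the partner factor of CEBPD, at 1.03 (adjusted p = 0.0027), both by limma. Of 6 neutrophil markers tested in lung 3 were called higher in BS and 1 lower, and their part in these differences was not tested.

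In liver IL6 was at most 0.258 TPM and IL1B at most 0.568 TPM, and 1 of 13 genes of this list was called higher, against 2.72% of all genes. That was CEBPA, the main C/EBP factor of resting hepatocytes, at 1.01 (SE 0.33, adjusted p = 0.049, limma). CEBPB was called higher in heart (1.13, adjusted p = 0.0023) and kidney (1.55, adjusted p = 0.0023) as well, and stood at 0.54 in liver (adjusted p = 0.32) and 0.74 in spleen (adjusted p = 0.055) by limma. No list member was called in spleen, where 0 of 17 passed at 2-fold in either direction, against 1.42% of all genes higher and 1.56% lower.

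Other positive acute phase proteins followed the liver pattern. Of 14 tested, 14 were called higher in liver than in heart, kidney and spleen, against 7.52%, 3.29% and 5.74% of all genes. Over lung 13 of 14 were called, against 4.51%. Between the groups 1 of 14 was called higher in BS livers and 0 lower, against 2.72% and 0.642% of all genes. It was APCS, the pentraxin serum amyloid P, which averaged 682 ± 293 TPM in BS livers and 274 ± 101 TPM in DSE livers (SD, n = 4 each; 1.30 on the log2 scale, adjusted p = 0.02, limma). Haptoglobin (HP), identified by position and overlapped on the opposite strand by an identifier with up to 43973 TPM, differed by 0.13 (adjusted p = 0.62), SAA2 by 0.05 (adjusted p = 0.92) and SAA3 by -0.18 (adjusted p = 0.92) by limma. SAA3 ranged over 89.0 to 1722 TPM in BS livers and 49.0 to 1753 TPM in DSE livers. Of 8 negative acute phase proteins, whose plasma level falls in inflammation, 0 were called in either direction in liver, against the same 2.72% and 0.642%. ALB differed by -0.51 (adjusted p = 0.067), TTR by -0.40 (adjusted p = 0.12) and TF by -0.36 (adjusted p = 0.31) by limma.

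Relatives and partners of the single genes were tested in the same way. Of 4 other inter-alpha-trypsin inhibitor family genes tested in liver 0 were called (2.72% of all genes higher, 0.642% lower), with ITIH1 at -0.10 (adjusted p = 0.7), ITIH2 at -0.17 (adjusted p = 0.58) and ITIH5 at 0.24 (adjusted p = 0.34) by limma. Of 7 SOCS family genes, SOCS2, the inhibitor of growth hormone signalling, was called lower in BS livers (-1.95, SE 0.58, adjusted p = 0.036) and SOCS1 was called higher in BS lungs (1.65, SE 0.23, adjusted p = 0.0028) by limma. CISH, another family member, was called higher in BS lungs (1.25, adjusted p = 0.00913) and kidneys (1.17, adjusted p = 0.0438) and SOCS4 was called lower in BS lungs (-1.14, adjusted p = 0.00988) by limma. In all 2 of 7 were called higher and 1 of 7 lower in lung, against 2.69% and 6.36% of all genes. CD14, to which LBP passes lipopolysaccharide, was called higher in BS kidney (1.33, adjusted p = 0.006) and spleen (1.12, adjusted p = 0.0255), and passed the p alone in liver (0.97, adjusted p = 0.00275), all by limma. TLR4, the receptor for lipopolysaccharide, was called lower in BS spleens (-1.01, adjusted p = 0.0214, limma) and stood at 0.25 in liver (adjusted p = 0.378, limma). LY96, the partner of TLR4, passed the p alone in spleen (-0.75, adjusted p = 0.02) and lung (-0.80, adjusted p = 0.00485) and stood at -0.20 in liver (adjusted p = 0.505), all by limma. In spleen 1 of 3 genes of lipopolysaccharide recognition was thus called higher and 1 of 3 lower, against 1.42% and 1.56% of all genes. MMP9, which binds LCN2, was called higher in BS lungs (1.59, adjusted p = 0.018), the LCN2 receptor gene LRP2 was called lower in BS spleens (-1.03, adjusted p = 0.0098), and SLC22A17, another LCN2 receptor gene, passed the p alone in BS livers (0.64, adjusted p = 0.0256), all by limma. Of 8 immediate early genes, which answer to handling of tissue within minutes, 2, ATF3 and JUNB, were called higher in BS lungs, against 2.69% of all genes, and 0 in the other organs.

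Single animals did not carry all liver proteins together. BS animal 1 had the highest ORM1 and LBP and the second CRP of BS, but the lowest ITIH4 of BS. BS animal 3 had the lowest CRP and SAA4 of BS with high ITIH4, LBP and CEBPD. It also had the highest level of the identifier upstream of CRP, at 508 TPM. DSE animal 1 led the DSE livers in CRP, LCN2, SAA4 and SOCS3, and DSE animal 3 had the lowest ITIH4, LBP and LCN2 of the 8. The Pearson correlation of log2(TPM + 1) with CRP over 8 livers was 0.74 for SOCS3, 0.65 for SAA4, 0.64 for LCN2, 0.62 for ORM1, 0.51 for LBP, 0.24 for CEBPD and ITIH4 and -0.28 for ITIH3.

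None of the 8 relations passed adjustment by the two-sided exact permutation test. SOCS3 had p = 0.046 and adjusted p = 0.19, with Spearman rho = 0.67 (p = 0.083, adjusted p = 0.21, exact permutation), r = 0.66 without the 2 livers farthest from the CRP median and r = 0.65 after centring on the group means. ORM1 had p = 0.097 and adjusted p = 0.19, with rho = 0.74 (p = 0.046, adjusted p = 0.21, exact permutation), r = 0.48 without those livers and r = 0.31 after centring. SAA4 had p = 0.09 and LCN2 p = 0.085 (adjusted p = 0.19 each, exact permutation). The genes whose liver levels were most like CRP among 6725 compared were MRPS23 (r = 0.982), ZNHIT3 (r = 0.977), AARS1 (r = 0.973), RAB8A (r = 0.972) and TBL2 (r = 0.972), over 8 livers only.

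**Figure D5:**
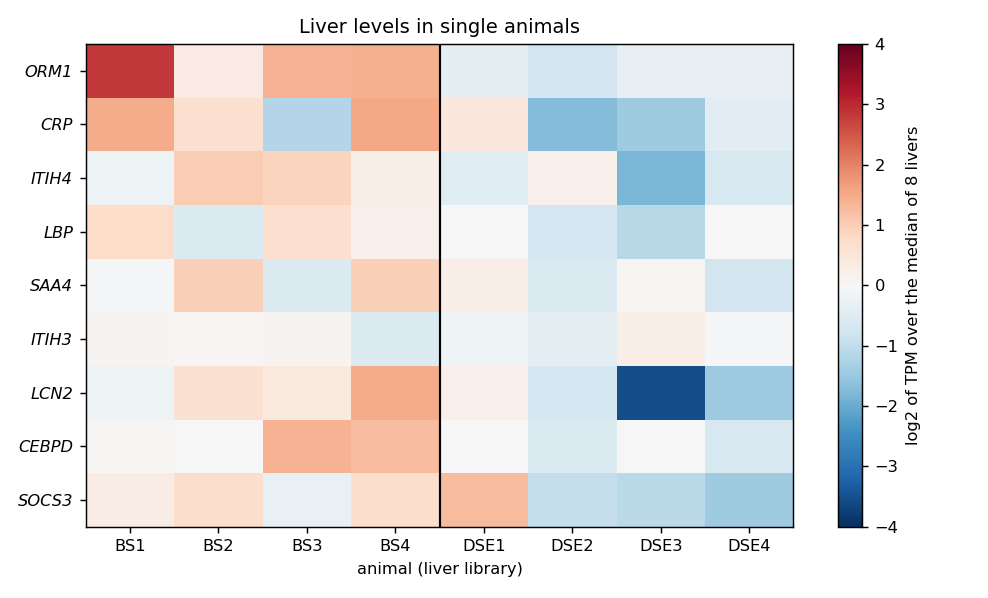
Liver level of each acute phase gene in single animals, as the log2 of TPM over the median of the 8 livers, red above and blue below it; BS animals stand left of the line and DSE animals right of it. ORM1 is above its median in all 4 BS livers and below in all 4 DSE livers, while the rows of CRP, ITIH4 and LBP are mixed within the groups.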

How the data were processed

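Levels came from 40 short-read libraries (5 organs, 4 BS and 4 DSE pigs) and 10 long-read libraries. The deposited TPM values sum to 1000000 per library, and the authors used STAR 2.7.10a and Salmon 1.10.1 on susScr11, per the submitters' processing notes. Their role for each file, and use of strand, is not given in the sources used here. The deposited full-length read counts are whole numbers per transcript; here they were summed per gene. Per the file headers, rtracklayer 1.58.0 wrote the annotation. Of the deposited tables, 20 gene, 20 transcript and 5 long-read columns map to no sample given here and were not used, and the 20 short-read and 5 long-read samples labelled DT match no column name.

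The acute phase genes and all gene lists were chosen with earlier results of these data known. ORM1, SAA4, HP, SAA2, SAA3, IL1B and some markers, unnamed in the annotation, were named where 1 identifier covered at least 75% of a RefSeq gene (Sscrofa11.1, the same build); the same match gave 12012 of 12535 named genes their own symbol (95.83%). Tests used log2(TPM + 1) of genes averaging at least 1 TPM in a group (limma 3.58.1, R 4.3.3), with Benjamini-Hochberg adjustment over all genes tested. Organ calls needed an adjusted p under 0.05 and 4-fold in a fit of all 40 libraries, and BS minus DSE calls 2-fold in the 8 libraries of an organ. Organs of 1 animal were treated as separate samples, although they deviated together in part. A correlation over 0.1 was found in 47 of 80 pairs of organs of the same animal. For different animals of a group it was 21 of 240 pairs. Full-length counts were tested with edgeR 4.0.16, with DESeq2 1.42.0 as an alternative. Figures used Python 3.11.15. The fits were tested on simulated data drawn without an animal effect. That check therefore does not cover organs of 1 animal that deviate together. Beyond the acute phase genes, the text names list members called in liver between the groups and up to 3 measured genes per list in list order; CEBPB, OSM, IL6R, IL6ST and the genes called outside liver beyond that rule were named after their values were seen. Intervals and floors cover counting error only. Alternatives were another pseudocount, no filter, median-ratio scaling, no trend, the replicate block and leaving out each animal. The promoter motif search was not run.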

Additional observations from a re-analysis of the deposited data

Results flagged for a closer look

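In 9 of 61 groups of 4 animals a single animal stood apart from the other 3, by Dixon's 95% criterion, which chance exceeds in about 1 of 20 groups. ITIH4 in BS spleen reached 15.18 TPM in animal 2, with the others at 7.41 to 7.78 TPM. ITIH3 in BS liver was 309.21 TPM in animal 4, with the others at 467 to 494 TPM, and that liver held heart muscle markers at 221 TPM. LBP in BS kidney was 19.829 TPM in animal 3, with the others at most at 1.82 TPM. LCN2 in DSE lung was 317.36 TPM in animal 2, with the others at 173 to 196 TPM. ORM1 in DSE liver was 377.04 TPM in animal 2, with the others at 483 to 498 TPM, and ORM1 in BS spleen was 1.0122 TPM in animal 1, with the others at 0.167 to 0.192 TPM. SOCS3 stood apart in BS heart at 12.745 TPM (animal 2), in DSE kidney at 8.9471 TPM (animal 1) and in DSE liver at 38.543 TPM (animal 1).

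The BS minus DSE difference varied between organs for ITIH4 (F = 4.76, adjusted p = 0.0465, limma). ITIH4 was 1.17 in liver and 0.90 in heart, against -0.37 in lung and -0.62 in spleen. The ITIH4 result was lost in 10 of 13 alternatives. The same test for ORM1 gave F = 10.7 (adjusted p = 9.57e-04, limma), and F = 2.10 with a pseudocount of 0.1 TPM (adjusted p = 0.337, limma). ORM1 met the 1 TPM minimum through liver alone and the pseudocount of 1 TPM holds the other organs near 0, so nothing is read from that test.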

How the results depend on the processing

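With a pseudocount of 0.1 TPM the number of genes called became 569 for differences between organs in BS minus DSE, 614 in heart, 990 in kidney, 772 in liver, 633 in spleen and 691 over organs. Between organs it became 4071 (heart and kidney), 3950 (heart and liver), 5486 (heart and lung), 4714 (heart and spleen), 3823 (kidney and liver), 4441 (kidney and lung), 4463 (kidney and spleen), 6835 (liver and lung), 5812 (liver and spleen) and 2646 (lung and spleen). Without the filter it was 266 for BS minus DSE in spleen, with median-ratio scaling 2554 for liver and lung, and with annotated transcripts only 758 (heart and liver), 466 (kidney and liver), 610 (liver and lung) and 610 (liver and spleen) in long reads. Leaving out single animals gave 686 to 1889 genes for differences between organs, 447 to 1059 in kidney and 870 to 2035 in lung; the cause was not tested. Median-ratio scaling turned CEBPD lung minus liver (-0.739), CEBPD spleen minus heart (-0.0318), ITIH3 lung minus heart (-0.274) and SOCS3 spleen minus liver (-0.264). Animals with the same number did not deviate together between BS and DSE. Of 20 such pairs 0 had a correlation over 0.1, so the numbers do not pair them. With the animal number as the replicate block the counts were 1183 in lung, 581 in kidney, 401 in spleen, 397 in liver and 326 in heart. CRP in liver then passed (adjusted p = 0.0443, limma) and LCN2 in spleen did not (adjusted p = 0.0517, limma). For differences between organs the replicate block was the single animal, and the count was 1743. Short-read depth is unknown, which limits values near 0.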
